A study of Mus musculus with 8 samples.

Results

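The genes described here encode the acidifying and digestive machinery of the lysosome: 16 subunits and accessory proteins of the vacuolar proton pump, 4 proteins of the lysosomal membrane, 12 luminal hydrolases and their co-factors, and the 3 transcription factors Tfeb, Tfe3 and Mitf. They were chosen by symbol from the 24411 rows of the count table, and all 35 symbols were found there. Of these, 34 passed the filter on low counts, and Atp6v0c had 0 counts in every library. Poly(A) RNA was measured by sequencing in whole aortas of 8 mice, each library from a single mouse of stated sex and age. The 5 mice called caIKK2EC had the genotype caIKK2(+/+) BMXCreERT2(+/-) ApoE(-/-): they lacked apolipoprotein E and carried a constitutively active IKK2, the kinase upstream of NF-κB, together with a co-translated EGFP behind a floxed stop cassette, and a Cre inducible by tamoxifen whose driver, Bmx, is stated to be active in arterial endothelium only. The 3 Control mice were caIKK2(+/+) BMXCreERT2(-/-) ApoE(-/-) littermates, so they carried the silent transgene and the ApoE defect but no Cre. Both groups received tamoxifen (1 mg per 20 g of body weight on 5 days) and a Western-type diet with 2070 mg of cholesterol per kg for 12 weeks. Activation of the transgene is described for an earlier or a later point of disease, and the labels of these 8 mice do not say which. All mice were female and 18 or 19 weeks old except Control 3, the only male and the only Control of 19 weeks. Since the transgene acts in endothelium and RNA came from the whole vessel, more cells of a type and more RNA per cell cannot be told apart in these values.

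Lysosomes degrade lipids, glycans, proteins and dead cells taken up from outside, as well as material delivered by autophagy. Their acid interior is kept up by the vacuolar ATPase, in which a cytosolic V1 sector hydrolyses ATP and a membrane-bound V0 sector moves protons. In plaques, macrophages that engulf lipoprotein rely on this compartment to free cholesterol from its esters, and TFEB and its relatives are known to switch on many lysosomal genes by binding a short palindrome-like element near their start sites, called CLEAR.

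Because that element is the known link between the transcription factors and the other genes, its letters were looked up in RefSeq promoters (GRCm38.p6, 250 bases before to 50 bases after each start). The search was for GTCACGTG on both strands, and for the shorter core CACGTG, which every match of the longer motif also contains. Promoters were matched for 29 of the 35 genes, and Atp6v1b2, Atp6v1c1, Atp6v1g1, Atp6v1h, Atp6v0d2 and Asah1 had no entry. GTCACGTG stood in a promoter of 7 of the 29 genes (24.1%), against 3.27% of 17224 genes of the count table. Counted by promoter, it was in 7 of 37 (18.9%), against 2.24% of all 32817 RefSeq promoters. Since the element is known from lysosomal genes, a higher share among them is no separate support for it. The core was in 9 of the 29 (31%), against 9.17% of the genes of the count table. The stretches that hold the longer motif are shown 5′ to 3′ on the strand of the gene, with the motif or its reverse complement in capitals. Those of Mcoln1 and Naglu are kept short because they reach into an annotated transcript.
Atp6v0b, chromosome 4, 117887339 to 117887388, minus strand: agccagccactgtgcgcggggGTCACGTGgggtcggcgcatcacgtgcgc
Atp6v0d1, chromosome 8, 105566062 to 105566090, minus strand: taagagccaggccctactgcgGTCACGTG
Lamp1, chromosome 8, 13159112 to 13159160, plus strand: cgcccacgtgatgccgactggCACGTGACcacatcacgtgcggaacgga
Mcoln1, chromosome 8, 3500436 to 3500463, plus strand: ggtcgcgcttGTCACGTGttcagttcag
Mcoln1, chromosome 8, 3500464 to 3500491, plus strand: gcgccccgctCACGTGACcgcggcgcat
Gla, chromosome X, 134601173 to 134601222, minus strand: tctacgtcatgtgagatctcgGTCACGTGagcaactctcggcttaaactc
Glb1, chromosome 9, 114401007 to 114401056, plus strand: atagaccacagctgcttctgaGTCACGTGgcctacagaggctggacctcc
Naglu, chromosome 11, 101070009 to 101070036, plus strand: caaccttcagGTCACGTGgcccgaggtc

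The motif began 38 bases before the RefSeq start in Atp6v0b, 50 in Glb1, 75 in Naglu and 196 in Gla, 28 bases before it in Lamp1, and in Atp6v0d1 it ran from 5 bases before the start to the third transcribed base. Mcoln1 alone among these genes had 2 copies, and the Lamp1 promoter held 4 copies of the core. By class, the longer motif was found in 2 of 11 pump genes, 2 of 4 membrane protein genes, 3 of 11 hydrolase and co-factor genes and 0 of the 3 transcription factor genes. A match is a run of letters and not a measured binding site.

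The libraries held 23461655 to 30808502 counts. The column names place the 3 Controls and caIKK2EC 1 in lane 7 and the other 4 libraries in lane 8, so that only caIKK2EC 1 can be set against Controls within a lane. In any fit with the lane as a covariate, the group difference therefore rests on caIKK2EC 1 alone. Ikbkb, the gene for IKK2, was at 86.8, 87.0 and 65.4 CPM (counts scaled by TMM factors to a common library size) across Controls 1 to 3, and at 99.3, 103, 98.7, 99.9 and 91.6 CPM across caIKK2EC 1 to 5, with no overlap. Its log2 fold change of 0.30 (SE 0.12) was not called by edgeR's quasi-likelihood test (adjusted p = 0.237). Heart muscle transcripts stood apart in Control 1 (902 CPM of Myh6) and caIKK2EC 1 (480 CPM). In Control 3 the macrophage gene Lyz2 was at 541 CPM, and summed smooth muscle markers reached 37693 CPM, the highest of the 8 libraries.

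The comparison of caIKK2EC with Control addressed what an active IKK2 in arterial endothelium does to RNA levels in the diseased aorta, here those of the lysosomal genes. Cre was carried by the caIKK2EC mice only, so active IKK2 and the presence of Cre cannot be told apart. Most of the 34 genes were at a higher mean level in caIKK2EC aortas: the log2 fold change was above 0 for 32 and below 0 for Atp6v1f and Tfeb. The median was 0.29, against -0.02 over all 14679 genes tested. It was 0.42 for the hydrolases and co-factors, 0.33 for the membrane proteins, 0.17 for the pump and 0.15 for the transcription factors. Without Control 3 these medians were 0.32, 0.32, 0.18 and -0.01.

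The test by edgeR (quasi-likelihood, Benjamini-Hochberg adjusted over all genes) called 0 of the 34 genes and 0 of all genes (0%), with a lowest adjusted p of 0.107 over all genes and 0.114 among these. It called 2 of the 34 without caIKK2EC 2 (Laptm5 and Gla), and 6 with age as a covariate. At an unadjusted edgeR p under 0.05, 17 of the 34 were higher and 0 lower, against 9.66% of all genes higher and 7.47% lower. That count was 11 without caIKK2EC 3 and 7 with the lane as a covariate. The shares of all genes in those fits are not reported here, and 9.66% belongs to the fit on all 8 libraries without a covariate. DESeq2, run on the same counts, called 10 of the 34 higher and 0 lower, against 4.55% higher and 1.51% lower of the 14340 genes to which it gave an adjusted p. Those 10 were Psap, Grn, Hexa, Gla, Gusb, Asah1, Lamp1, Laptm5, Atp6v1b2 and Atp6v1c1. The authors' deposited table gives the same 10 an adjusted p under 0.05. It also comes from DESeq2 on these counts, so the match is not a second test. The 6 genes that edgeR called with age as a covariate were all among them. Hexa, Gusb, Grn, Laptm5 and Atp6v1b2 were called in each of the 8 DESeq2 fits that left out 1 library, and the other 5 were lost in at least 1 of them. DESeq2 called 5 without Control 3, 17 without caIKK2EC 2, 6 without caIKK2EC 3, 6 without caIKK2EC 4, 6 without caIKK2EC 5, and 6 on the 6 libraries low in heart muscle transcripts, a fit in which it called 1138 of all genes, against 869 on all 8 libraries. With the lane as a covariate it called 0, in a fit whose group difference rests on caIKK2EC 1 alone. The median log2 fold change of the 34 genes by edgeR was 0.34 with the lane and 0.29 without it.

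In 13 of the 34 genes all 5 caIKK2EC libraries lay above all 3 Controls, and in 0 all lay below, against 7.01% and 3.22% of all genes. For each of these 13 the exact two-sided permutation p was 0.0357, the smallest that 3 against 5 libraries allows. Without caIKK2EC 2 the count of higher genes without overlap was 21, against 11.6% of all genes in the same 3 against 4 libraries. Control 3 was the lowest Control in 23 of the 34 genes and caIKK2EC 2 the lowest caIKK2EC library in 24. The same counts over all genes are not reported here, so this is not shown to be particular to these genes. Within lane 7, caIKK2EC 1 was above the Control mean in 32 of 34 genes, with a median log2 difference of 0.35, against 7483 of 14679 genes overall and a median of 0.01. This rests on 1 library, which also stood apart in adipocyte markers. Their sum was 5426 CPM in caIKK2EC 1, 2433 to 3099 CPM in Controls and 599 to 1911 CPM in caIKK2EC 2 to 5.

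**Figure D1:**
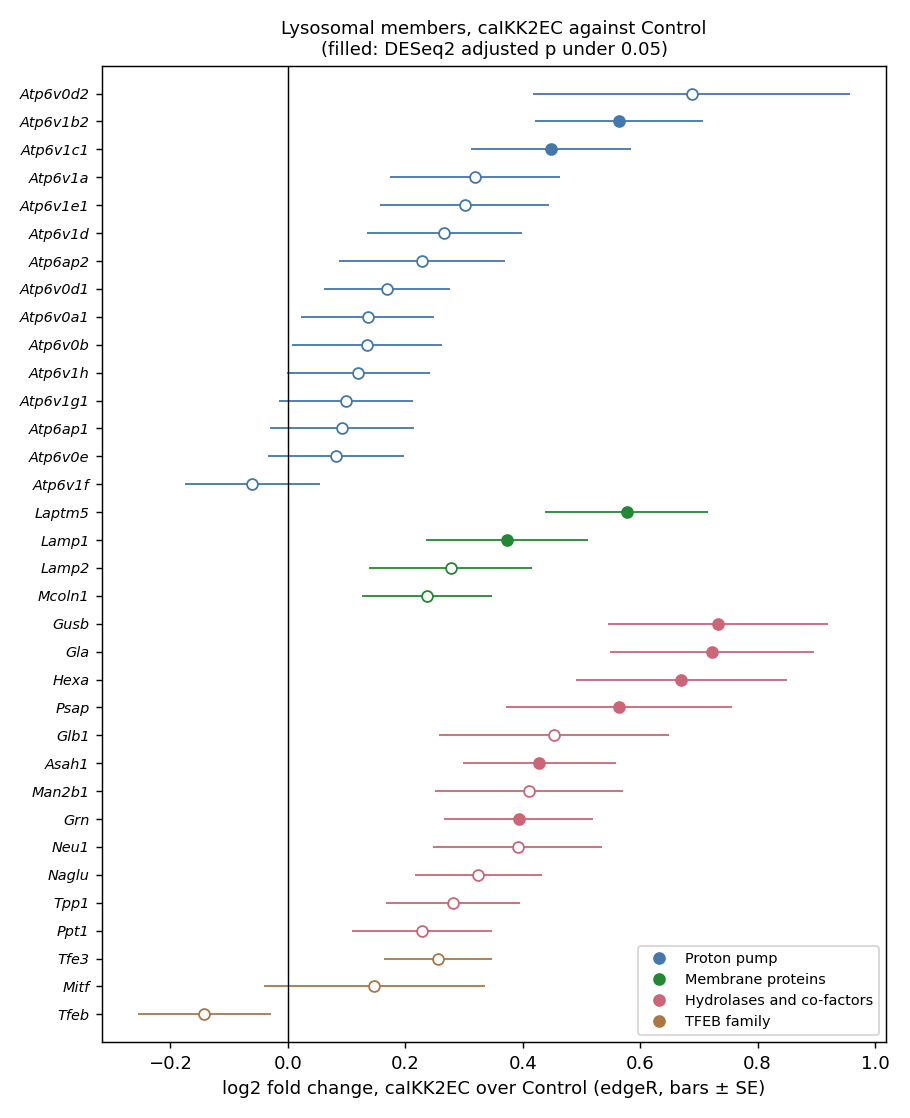
Log2 fold change of caIKK2EC over Control for the 34 tested genes (x axis, edgeR estimate, bars ± SE), one gene per line and coloured by class; filled circles had a DESeq2 adjusted p under 0.05. All points except Atp6v1f and Tfeb lie to the right of 0, and the hydrolases reach from 0.23 in Ppt1 to 0.73 in Gusb.

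Of the 12 luminal hydrolases and co-factors, 11 were higher at an unadjusted edgeR p under 0.05, 9 had no overlap between groups and DESeq2 called 6. Over all genes these shares were 9.66%, 7.01% and 4.55%. Psap (chromosome 10, 60277627 to 60302597, plus strand, GENCODE M21 on GRCm38 here and below) encodes prosaposin, which is cut into the saposins that present sphingolipids to their hydrolases. It took 0.557% to 0.883% of all counts in Control libraries and at least 0.937% in each caIKK2EC library, and ranked between the first and the ninth most abundant gene of every library. Its level was 7301, 8689 and 6029 CPM across Controls 1 to 3, and 10473, 9260, 12629, 11186 and 10713 CPM across caIKK2EC 1 to 5. The groups did not overlap, with caIKK2EC 2 the closest to the Controls. The log2 fold change was 0.56 (SE 0.19, edgeR adjusted p = 0.192, DESeq2 adjusted p = 0.0129), and 0.44 without Control 3.

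Gusb (chromosome 5, 129989011 to 130003049, minus strand), which encodes β-glucuronidase, had the largest fold of the hydrolases. It was at 425, 477 and 296 CPM in the Controls and at 673, 526, 779, 669 and 672 CPM across caIKK2EC 1 to 5. Control 3 was far below the other Controls, but all caIKK2EC libraries were also above Control 2. This was a log2 difference of 0.73 (SE 0.19), or 1.66-fold, with an edgeR adjusted p of 0.129 and a DESeq2 adjusted p of 0.0052.

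Gla (chromosome X, 134588149 to 134601125, minus strand) encodes α-galactosidase A, which removes terminal galactose from globotriaosylceramide. Its Control levels were 65.8, 77.5 and 55.0 CPM, and its caIKK2EC levels were 106, 79.6, 133, 114 and 113 CPM. Only caIKK2EC 2 came close to the highest Control. On the log2 scale the difference was 0.72 (SE 0.17, edgeR adjusted p = 0.114, DESeq2 adjusted p = 0.00694). This gene carries the motif printed above, farther from the start than in the other 6 genes.

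Hexa (chromosome 9, 59539540 to 59565109, plus strand) encodes the α subunit of β-hexosaminidase, the enzyme that degrades GM2 ganglioside. It was at 662, 601 and 399 CPM in Control and at 839, 800, 1002, 894 and 871 CPM in caIKK2EC aortas. The gap between the groups was wide here, from 662 to 800 CPM. The estimated log2 difference was 0.67 (SE 0.18, edgeR adjusted p = 0.136, DESeq2 adjusted p = 0.00678), 0.48 without Control 3 and 0.85 without the 2 libraries with heart muscle transcripts.

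Asah1 (chromosome 8, 41340197 to 41374773, minus strand) encodes acid ceramidase, which splits ceramide. Its levels were 199, 211 and 174 CPM in Control and 266, 216, 288, 270 and 269 CPM in caIKK2EC. All libraries except caIKK2EC 2 lay well above the Controls, and that library lay just above Control 2. On average this amounted to a log2 difference of 0.43 (SE 0.13, edgeR adjusted p = 0.159, DESeq2 adjusted p = 0.0272).

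Grn (chromosome 11, 102430315 to 102437048, plus strand) encodes progranulin, a secreted glycoprotein that is processed to granulins in lysosomes. It showed the tightest Controls of the described hydrolases and co-factors, at 886, 908 and 872 CPM, and stood at 1255, 1205, 1205, 1049 and 1120 CPM in caIKK2EC aortas. Here caIKK2EC 4, and not caIKK2EC 2, was the lowest of its group. The log2 fold change was 0.39 (SE 0.13, edgeR adjusted p = 0.175, DESeq2 adjusted p = 0.00457) and ranged from 0.38 to 0.45 when single libraries were left out.

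The remaining 6 hydrolases also had higher means in caIKK2EC aortas, and none was called by edgeR or DESeq2. Naglu, an enzyme of heparan sulphate breakdown, had Controls of 99.4 to 113 CPM and caIKK2EC libraries of 119 to 148 CPM, with a log2 fold change of 0.32. Neu1, the lysosomal sialidase, ran from 45.0 to 67.9 CPM and from 70.7 to 87.9 CPM, with 0.39. Tpp1, a peptidase that removes tripeptides, ran from 252 to 299.8 CPM and from 313 to 355 CPM, with 0.28. These 3 had no overlap between groups. In Man2b1 (lysosomal α-mannosidase, log2 fold change 0.41), Glb1 (β-galactosidase, 0.45) and Ppt1 (palmitoyl-protein thioesterase, 0.23) the groups overlapped, and Ppt1 was the only one of the 12 with an unadjusted edgeR p above 0.05, at 0.0852.

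**Figure D2:**
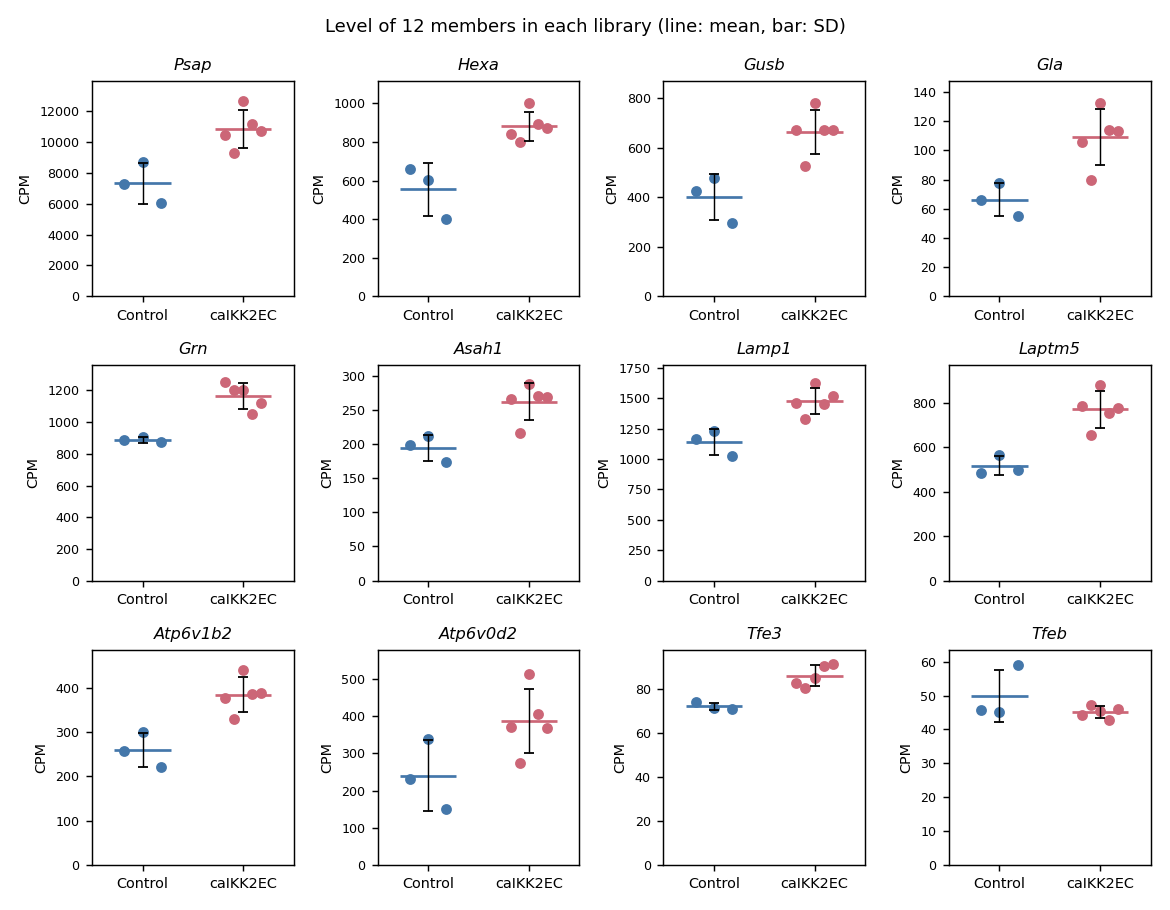
CPM of 12 genes in each library (y axis from 0), with 3 Control points in blue and 5 caIKK2EC points in red in library order, a line at the group mean and a bar of ± SD. In Psap, Hexa, Gusb, Gla, Grn, Asah1, Lamp1, Laptm5, Atp6v1b2 and Tfe3 every red point is above every blue one; in Atp6v0d2 and Tfeb the groups overlap.

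Of the membrane proteins, Laptm5 and Lamp1 separated the groups and Lamp2 and Mcoln1 did not. Laptm5 (chromosome 4, 130913125 to 130936141, plus strand) encodes a transmembrane protein of lysosomes in blood-derived cells. It was at 487, 565 and 498 CPM in Control and at 787, 654, 883, 754 and 778 CPM in caIKK2EC aortas. Its Controls were close together, with Control 3 in the middle, and all caIKK2EC libraries were higher. This was a log2 difference of 0.58 (SE 0.14, edgeR adjusted p = 0.114, DESeq2 adjusted p = 0.00104), from 0.52 to 0.67 when single libraries were left out.

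Lamp1 (chromosome 8, 13159161 to 13175338, plus strand) encodes the abundant glycoprotein that lines the inner face of the lysosomal membrane. Its levels were 1162, 1235 and 1026 CPM in Control and 1464, 1328, 1627, 1450 and 1522 CPM in caIKK2EC. The groups did not overlap, and the log2 fold change was 0.37 (SE 0.14, edgeR adjusted p = 0.215, DESeq2 adjusted p = 0.0243). Lamp2 (chromosome X, 38401357 to 38456454, minus strand), its paralog that also serves chaperone-mediated autophagy, was at 433, 406 and 464 CPM and at 550, 415, 554, 551 and 561 CPM. Of its caIKK2EC libraries 4 lay within a narrow band above all Controls, while caIKK2EC 2 lay among the Controls. On the log2 scale the difference was 0.28 (SE 0.14, edgeR adjusted p = 0.341).

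Mcoln1 (chromosome 8, 3500457 to 3515232, plus strand) encodes the lysosomal calcium channel TRPML1. It was at 39.4, 46.7 and 37.8 CPM in Control and at 52.5, 46.6, 52.2, 46.7 and 45.4 CPM in caIKK2EC. Control 2 lay within the caIKK2EC range. The estimated log2 difference was 0.24 (SE 0.11, edgeR adjusted p = 0.311). Its promoter was the only one of the class with 2 copies of the motif.

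In the pump, the B and C subunits of the V1 sector were called by DESeq2 and 0 of the V0 subunits were. Of the V1 sector, Atp6v1b2 (chromosome 8, 69088646 to 69113711, plus strand), the widely expressed B subunit of the ATP-hydrolysing ring, was at 257, 299 and 222 CPM in Control and at 376, 330, 441, 385 and 387 CPM in caIKK2EC. It was the only pump gene without overlap between groups. On average this amounted to a log2 difference of 0.56 (SE 0.14, edgeR adjusted p = 0.128, DESeq2 adjusted p = 0.0051).

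Atp6v1c1 (chromosome 15, 38661933 to 38692446, plus strand), the C subunit that is released when the sectors come apart, was at 108, 121 and 95.0 CPM in Control and at 163, 118, 159, 151 and 146 CPM in caIKK2EC. Here caIKK2EC 2 fell between Control 1 and Control 2. The log2 fold change was 0.45 (SE 0.14, edgeR adjusted p = 0.16, DESeq2 adjusted p = 0.0455). Atp6v1a (chromosome 16, 44085402 to 44139705, minus strand), the catalytic A subunit and partner of B in the ring, was at 242, 297 and 279 CPM and at 324, 272, 394, 355 and 354 CPM. Its 2 highest Controls exceeded caIKK2EC 2, and the log2 fold change was 0.32 (SE 0.14, edgeR adjusted p = 0.296). Atp6v1e1 (chromosome 6, 120794305 to 120822793, minus strand), part of the peripheral stalks, was at 160, 174 and 125 CPM and at 210, 160, 206, 177 and 188 CPM. Again caIKK2EC 2 lay among the Controls, and the log2 fold change was 0.30 (SE 0.14, edgeR adjusted p = 0.321). The other V1 subunits measured, Atp6v1d, Atp6v1f, Atp6v1g1 and Atp6v1h, had log2 fold changes from -0.06 (Atp6v1f) to 0.27 (Atp6v1d), all with overlap, and the sign for Atp6v1f turned to 0.01 without caIKK2EC 4.

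In the V0 sector, the largest difference was in the d subunit that macrophages and osteoclasts are known for. Atp6v0d2 (chromosome 4, 19876841 to 19922605, minus strand) was at 232, 340 and 149 CPM in Control and at 371, 274, 515, 405 and 370 CPM in caIKK2EC. Its spread within groups was the widest of the pump genes, and caIKK2EC 2 was below Control 2. This was a log2 difference of 0.69 (SE 0.27, edgeR adjusted p = 0.238, DESeq2 adjusted p = 0.109), 0.44 without Control 3 and 1.04 without Control 2. Its widely expressed counterpart Atp6v0d1 (chromosome 8, 105524465 to 105566047, minus strand) had a log2 fold change of 0.17 (SE 0.11), from 137, 148 and 165 CPM in Control to 175, 180, 169, 162 and 157 CPM in caIKK2EC.

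Per kilobase of exon, the ratio of Atp6v0d2 to Atp6v0d1 was 1.12, 1.51 and 0.597 across Controls 1 to 3, and 1.40, 1.01, 2.01, 1.65 and 1.55 across caIKK2EC 1 to 5. The ranges overlapped, with a mean log2 difference of 0.57 and an exact two-sided permutation p of 0.25. For the a subunit, the ratio of Tcirg1, the form of osteoclasts and leukocytes, to Atp6v0a1 was 2.31, 1.79 and 1.03 in Control and 2.75, 2.18, 1.77, 1.97 and 1.70 in caIKK2EC. That log2 difference was 0.33 (exact permutation p = 0.429). A shift between alternative subunits was thus not detectable with these libraries. Control 3 had the lowest value of both ratios, and without it the log2 differences were 0.19 and 0.0057.

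The other V0 parts, Atp6v0a1, Atp6v0b and Atp6v0e, had log2 fold changes from 0.08 to 0.14, each with overlap. The accessory subunit Atp6ap1 (chromosome X, 74297097 to 74304721, plus strand) had the highest level per kilobase of the pump genes averaged over all libraries, at 129 ± 16.0 CPM per kilobase in Control (SD, n = 3) and 137 ± 7.62 in caIKK2EC (SD, n = 5). In CPM it was at 359, 364 and 445 in Control and at 393, 391, 442, 416 and 434 in caIKK2EC, with Control 3 the highest library of all. Its log2 fold change was 0.09 (SE 0.12, edgeR adjusted p = 0.751). Atp6ap2, the prorenin receptor, was at 0.23 (SE 0.14). Atp6v0c (chromosome 17, 24163866 to 24169702, minus strand), the ring subunit that carries the protons, is listed at 0 in all 8 libraries. GENCODE holds the pseudogenes Atp6v0c-ps1 and Atp6v0c-ps2, and the sources used here do not say how reads of near-identical copies were counted, so this 0 is not a measurement of the gene.

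Levels per kilobase differed widely between pump genes. The length is the union of all annotated exons, 9746 bases for Atp6v1h, so the order also depends on the annotated transcripts. In CPM the Control mean of Atp6v1h was 99.4, above Atp6v1d at 71.9, Atp6v1f at 63.6 and Atp6v1g1 at 51.3. Per kilobase the lowest was Atp6v1h, at 10.2 ± 0.897 CPM per kilobase in Control (SD, n = 3). It was followed by Atp6v1d at 15.6 ± 2.43 and Atp6v1c1 at 19.3 ± 2.35, of which the last 2 did not differ beyond their spread. The highest in Control were Atp6ap1, Atp6v0b at 104 ± 9.90, Atp6v0d2 at 88.5 ± 35.2 and Atp6v0d1 at 83.7 ± 7.85 CPM per kilobase, and Atp6v0d2 did not differ from Atp6v0b or Atp6v0d1 beyond its spread. In caIKK2EC aortas Atp6v0d2 reached 143 ± 31.9 CPM per kilobase (SD, n = 5), beside 137 ± 7.62 for Atp6ap1. Outside the pump, Psap stood at 2675 ± 485 CPM per kilobase in Control, Lamp1 at 427 ± 39.6 and Tfe3 at 7.80 ± 0.188.

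**Figure D3:**
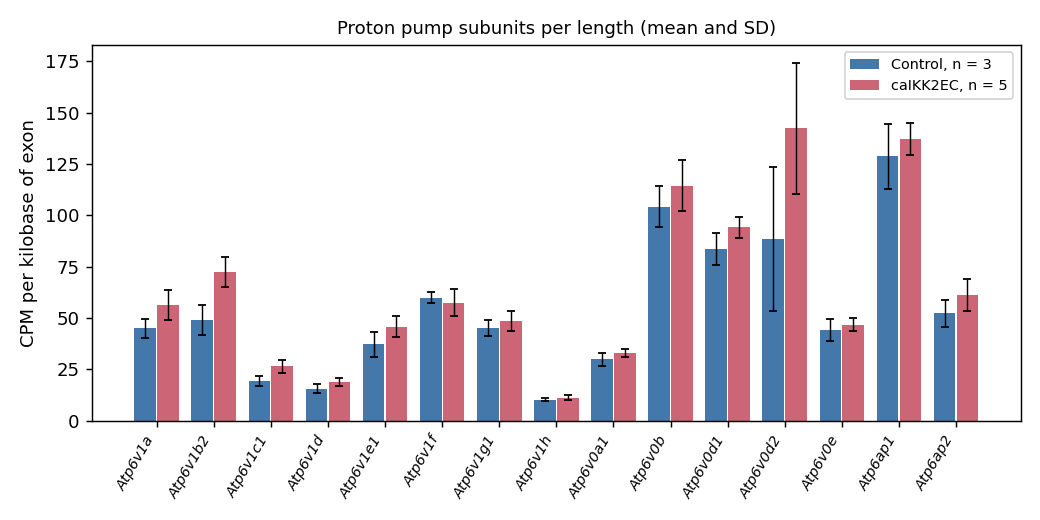
CPM per kilobase of exon for the 15 pump genes with counts (y axis from 0), with the mean of 3 Control libraries in blue and of 5 caIKK2EC libraries in red and bars of ± SD. Atp6v1b2, at 48.9 in Control and 72.3 in caIKK2EC, shows a gap wider than its bars, while Atp6v0d2 has the longest bars.

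None of the 3 transcription factors that act on lysosomal genes was called by edgeR or DESeq2. Tfeb (chromosome 17, 47737030 to 47792419, plus strand) was at 45.8, 45.0 and 58.9 CPM in Control and at 44.2, 47.3, 45.5, 42.9 and 46.1 CPM in caIKK2EC. Apart from Control 3, all libraries lay between 42.9 and 47.3 CPM. On the log2 scale the difference was -0.14 (SE 0.11, edgeR adjusted p = 0.555), and -0.01 without Control 3.

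Tfe3 (chromosome X, 7762560 to 7775202, plus strand), its X-linked relative, was at 74.2, 71.6 and 70.8 CPM in Control and at 82.7, 80.8, 85.3, 90.8 and 91.3 CPM in caIKK2EC. The groups did not overlap and were narrow. Its log2 difference of 0.26 (SE 0.09) had an edgeR adjusted p of 0.207 and a DESeq2 adjusted p of 0.0733, so neither test called it. Mitf (chromosome 6, 97807052 to 98021349, plus strand), known from pigment cells, osteoclasts and mast cells, was at 36.6, 29.4 and 19.9 CPM and at 30.0, 26.9, 37.7, 32.5 and 31.8 CPM. The groups overlapped, and the log2 difference of 0.15 (SE 0.19, edgeR adjusted p = 0.739) became -0.06 without Control 3. The melanocyte genes Pmel, Dct, Tyr and Mlana summed to 1.47 to 7.72 CPM per library. RNA levels of these factors say nothing of their location in the cell, which is how their activity is known to be set.

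The genes with the printed motif and those without it overlapped in their differences. The 7 with it had a median log2 fold change of 0.32, from 0.13 to 0.72, and DESeq2 called 2 of them, Gla and Lamp1. The 21 tested genes whose promoter entries lack it had a median of 0.28, from -0.14 to 0.73, and DESeq2 called 5 of them, Psap, Grn, Gusb, Hexa and Laptm5. Over all genes DESeq2 called 4.55% higher.

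Other genes of the pathway were grouped in 6 lists of 115 genes, of which 110 were tested. As with the genes above, edgeR called 0. At an unadjusted edgeR p under 0.05, 33 were higher and 3 lower, against 9.66% and 7.47% of all genes. DESeq2 called 17 higher and 1 lower, against 4.55% and 1.51% over all genes. The same shares over all genes apply to the counts of each list. Their median log2 fold change was 0.15. Among 32 further hydrolases and co-factors, 14 were higher and 0 lower at an unadjusted p under 0.05, DESeq2 called 9 higher, and the median was 0.28. Gm2a, the activator that lifts GM2 ganglioside to its hydrolase, had a log2 difference of 0.54 (SE 0.14), with an edgeR adjusted p of 0.13 and a DESeq2 adjusted p of 0.00476. Man2b2, a mannosidase, was at 0.37 (DESeq2 adjusted p = 0.00574).

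Of 26 other membrane proteins tested, 12 were higher and 2 lower at an unadjusted edgeR p under 0.05, against 9.66% and 7.47% of all genes. DESeq2 called 6 higher and 1 lower, against 4.55% and 1.51% over all genes. Slc11a1, the metal transporter of phagosomes, averaged 124 ± 13.3 CPM over the Controls and 177 ± 13.3 CPM over the caIKK2EC libraries (log2 fold change 0.51, DESeq2 adjusted p = 0.00181). The histidine and peptide transporter Slc15a3 was at 0.59 and Litaf, a late endosomal protein, at 0.51, both called by DESeq2. Abcb9, a lysosomal peptide transporter, went the other way, from 25.3 ± 7.66 CPM in Control to 13.4 ± 3.59 CPM in caIKK2EC, a log2 difference of -0.92 (SE 0.24, edgeR adjusted p = 0.134, DESeq2 adjusted p = 0.0195) and no overlap between groups.

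Of 12 genes for sorting enzymes to the lysosome, DESeq2 called 1 higher, against 4.55% over all genes. That gene was Gnptab, which makes the mannose 6-phosphate tag. It averaged 83.2 ± 7.55 CPM over the Controls and 144 ± 31.6 CPM over the caIKK2EC libraries, a log2 difference of 0.80 (SE 0.19, edgeR adjusted p = 0.112, DESeq2 adjusted p = 0.0047). The tag's receptors M6pr and Igf2r were at 0.33 and 0.52 and were not called. Of 14 further pump subunits and assembly factors tested, DESeq2 called 0. Only 1, Dmxl2 at 0.41, had an unadjusted edgeR p under 0.05, against 9.66% of all genes higher at that p. Tcirg1 was at 0.42 (SE 0.24), and Atp6v0e2 and Tmem9 were at -0.38 and -0.18. Among 16 genes that control the TFEB family, mainly the nutrient-sensing complexes on the lysosome, DESeq2 called 0. At an unadjusted edgeR p under 0.05, 2 were higher and 1 lower, close to the shares of 9.66% and 7.47% over all genes. Tfec, the fourth member of that family and one found in myeloid cells, averaged 8.04 ± 3.41 CPM over the Controls and 13.4 ± 2.52 CPM over the caIKK2EC libraries (log2 fold change 0.73, edgeR adjusted p = 0.243). Of 10 genes grouped as autophagy genes and other targets of the family, DESeq2 called Gpnmb alone, against 4.55% of all genes higher. Gpnmb averaged 3012 ± 1002 CPM over the Controls and 4841 ± 824 CPM over the caIKK2EC libraries (log2 fold change 0.68, DESeq2 adjusted p = 0.0484). Map1lc3b, the LC3 protein of autophagosomes, was at -0.20, and Uvrag and Vps18 were at 0.22 and 0.21. The sign for Uvrag turned to -0.24 with the lane as a covariate. The 10 genes of this list had a median of 0.01.

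Most markers of macrophages, a cell type rich in lysosomes, were also higher in caIKK2EC aortas. Cd163 went the other way, with a log2 fold change of -0.07, and its groups overlapped, as did those of Mertk and Aif1. Of 16 macrophage markers 14 were higher at an unadjusted edgeR p under 0.05, against 9.66% of all genes. DESeq2 called 12 higher, against 4.55% over all genes. The median log2 fold change of the 16 was 0.84, larger than that of any lysosomal class, and 0.60 without Control 3. The summed level of these markers was 2644 to 7822 CPM in Control and 9587 to 13355 CPM in caIKK2EC libraries, and no marker was at 0 in any library. Without Lyz2 the sum was 2103 to 3588 CPM in Control and 4922 to 5871 CPM in caIKK2EC. Smooth muscle markers were lower, 7 of 10 at an unadjusted edgeR p under 0.05, against 7.47% of all genes. Their sums were 18798 to 37693 CPM in Control and 10389 to 21353 CPM in caIKK2EC. Their median log2 fold change was -0.66, and -0.43 without Control 3. Of 5 osteoclast genes 3 were tested. Ctsk, the collagen-degrading protease of osteoclasts, was at 115 to 219 CPM over the 8 libraries (log2 fold change 0.39), and Dcstamp, a protein of cell fusion, at 2.40 to 9.68 CPM (log2 fold change 0.91), both with overlap. Ocstamp, its partner in fusion, had 207 counts over all libraries. It ran from 0.111 to 0.592 CPM in Control and from 0.873 to 2.42 CPM in caIKK2EC libraries, a log2 difference of 1.85. Being near the low count filter, it passed through its level in caIKK2EC, so its test is no support here. Oscar reached at most 0.66 CPM and Calcr at most 0.55 CPM in any library, and neither was tested. The part of these cell types in the differences of the lysosomal genes was not tested.

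Ratios to macrophage markers depended on the marker. Set against Cd68, a lysosomal membrane protein of macrophages, the groups stood in the opposite order. The ratio of Psap to Cd68 CPM was 17.9, 18.3 and 19.9 across Controls 1 to 3, and 15.2, 14.2, 17.0, 16.2 and 15.4 across caIKK2EC 1 to 5. For the sum of the 11 hydrolases and co-factors without Psap, the ratio was 8.28, 7.24 and 9.09 in Control and 6.47, 6.27, 6.60, 6.34 and 6.42 in caIKK2EC. For the summed pump genes it was 5.87 to 8.03 in Control and 4.21 to 4.71 in caIKK2EC. In these 3 ratios every caIKK2EC library was below every Control. For Laptm5 to Cd68 the groups nearly touched, at 1.193 to 1.641 in Control and 1.005 to 1.187 in caIKK2EC. Cd68 was the only one of the 16 markers that placed all caIKK2EC libraries below all Controls for Psap, and the groups overlapped with the other 15. Against Csf1r, for example, the Psap ratio was 29.9, 44.4 and 31.4 in Control and 32.8, 31.7, 40.9, 34.2 and 28.5 in caIKK2EC. All caIKK2EC libraries were below all Controls with 5 of 16 markers for the 11 hydrolases (Cd68, C1qa, C1qb, C1qc and Fcgr1), with 6 for the pump genes (the same 5 and Adgre1) and with Cd68 alone for Laptm5, and they were above all Controls with 0 of 16 in each case.

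**Figure D4:**
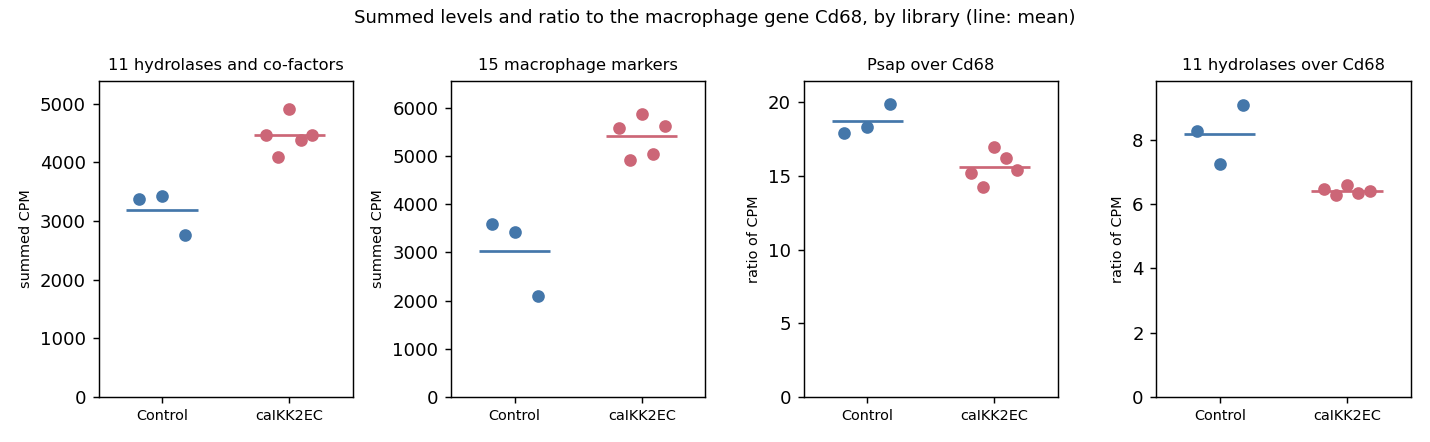
Summed CPM of the 11 hydrolases and co-factors without Psap and of the 15 macrophage markers without Lyz2, and the ratios of Psap and of those 11 genes to Cd68, each from 0 on the y axis with 1 point per library and a line at the group mean. Both sums are higher in all 5 caIKK2EC libraries (4087 to 4915 CPM against 2759 to 3428 CPM for the hydrolases) and both ratios are lower in all 5, which for Psap was so with Cd68 but with none of the other 15 markers.

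Some of these genes overlap a gene on the other strand: Grn with Fam171a2, Hexa with Tmem202, Lamp1 with Grtp1, Ppt1 with Cap1 and Atp6v1b2 with Slc18a1, while Glb1 shares its strand with Tmppe. The sources used here do not state whether the strand entered the counting, and without it the reads of such pairs cannot be told apart.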

How the data were processed

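Directional poly(A) libraries of whole aortas (3 Control, 5 caIKK2EC mice) gave single reads of 50 nt, per the labels' protocols. The authors deposited raw counts per gene symbol, used here as given. STAR 2.7.0e, FastQC 0.11.5, DESeq2 1.22.2 and GRCm38 are named in the submitters' processing notes, and the counting program is not. The authors' deposited comparison table holds log2 fold changes and p-values. Here, edgeR 4.0.16 (limma 3.58.1, R 4.3.3) was run with TMM scaling, its default low count filter (14679 genes kept), a robust quasi-likelihood model of group alone, and p-values adjusted over all genes by Benjamini-Hochberg (threshold 0.05). DESeq2 1.42.0 was the alternative, which kept genes with at least 10 counts. Exact two-sided permutation tests used all 56 assignments of log2 (CPM + 0.5), or of log2 count ratios with 0.5 counts added. Exon lengths are unions of GENCODE M21 exons. The edgeR and DESeq2 procedures were also run on counts simulated without effects of lane, sex or age, and the outcome is not reported here. The genes and lists were chosen with earlier results of these data known, so they get counts and medians but no list test and no adjustment over the list. Full values are given for the 3 transcription factors, for the 5 genes of each other class (4 for membrane proteins) with the smallest edgeR p and for the gene of each class with the highest level per kilobase, and up to 4 genes of each further list are named by the same p. Atp6v0d1 was added for its ratio. Some named genes of the further lists are not reported here. In the alternatives the scaling, filter, test, libraries and covariates were varied. No pair of libraries agreed within sampling noise (lowest chi-square per degree of freedom 16.9).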

Additional observations from a re-analysis of the deposited data

Results flagged for a closer look

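Lamp2 in caIKK2EC 2 was at 415 CPM, the lowest of its group of 5, with the next library at 550 CPM and the highest at 561 CPM. Its gap to the nearest library was 0.926 of the group's range, above Dixon's critical value of 0.71 for 5 samples. It was the only such library among the 34 genes tested for this in the caIKK2EC group, and chance gives such a gap in about 1 of 20 groups.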

How the results depend on the processing

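Genes called by edgeR went from 0 to 359 without caIKK2EC 2 (range over left-out libraries 0 to 359), to 661 with age as a covariate and to 869 by DESeq2; for the 34 lysosomal genes these counts were 2 (range 0 to 2), 6 and 10, and for the other pathway lists 3 (range 0 to 3), 17 and 18. Among the Controls, age sets Control 3 apart. The other scalings and filters, sex or lane as a covariate, and every other left-out library kept the edgeR count at 0. For counts at an unadjusted p under 0.05 in the varied fits, the share of all genes is not reported here. Lysosomal genes higher at that p were 17, with 11 to 22 when 1 library was left out and 7 with the lane as a covariate. By DESeq2 they were 10, with 5 to 17 when 1 library was left out, 6 on the 6 libraries low in heart muscle transcripts and 0 with the lane; all genes called by DESeq2 were 869, with 389 without Control 3, 1782 without caIKK2EC 2, 418, 385 and 392 without caIKK2EC 3, 4 and 5, 1138 on those 6 libraries and 255 with the lane. Lysosomal genes higher without overlap between groups were 13, and 13 to 21 when 1 library was left out. Over all genes that share was 7.01%, and 7.61% to 12.1% when 1 library was left out. The DESeq2 fits with a library left out or with the lane, the fit on 6 libraries, the fit on replicates 1 to 3 and the ratios to macrophage markers other than Cd68 were chosen after seeing the data. The causes of these shifts were not tested. Reversed signs were those of Atp6v1f (-0.11 to 0.010 when 1 library was left out, positive without caIKK2EC 4, and 0.0660 and 0.0661 on replicates 1 to 3 with and without the block), Tfeb (0.0039 by DESeq2 without Control 3), Mitf (-0.056 to 0.38 when 1 library was left out, negative without Control 3, -0.057 with sex and -0.046 by DESeq2 without Control 3) and Uvrag (-0.24 with the lane, -0.23 by DESeq2 with the lane). The median log2 fold change of the lysosomal genes stayed positive, between 0.25 and 0.38. With the lane it was 0.34, from a group difference that rests on caIKK2EC 1 alone.

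The replicate numbers were taken to be names only: deviations of same-numbered libraries correlated at 0.335, 0.0989 and 0.0968, not all above 0.1, though each library correlated best with its own number, a hint from the data and not the design. With the replicate number as a block, on replicates 1 to 3 of both groups, 6 lysosomal genes were higher at an unadjusted p under 0.05, against 9 on the same 6 libraries without the block. Leaving out libraries from the exact permutation test of single genes was not run, since 2 against 5 or 3 against 4 libraries cannot reach p = 0.05. Depth was 23461655 counts or more per library, and Mitf, with 6403 counts over all libraries, had the fewest of the 34 genes.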
